A study of Mnemiopsis leidyi with 31 samples.

Results

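In embryos of the ctenophore Mnemiopsis leidyi, 144 of 31067 transcripts (0.464%) were scarce through 5 h after fertilization by their mean levels over libraries. By the same means they were detected at 6 to 7 h and still present at 8 to 9 h. Single libraries departed from these means, as described below. The 144 transcripts, called members here, were chosen by their CPM in the libraries of 2013. CPM is the count of a transcript divided by the total of its library and multiplied by 1000000. A member had under 1 CPM in both libraries taken at 1 h post fertilization (hpf), a mean under 2 CPM over 2 to 3 hpf and over 4 to 5 hpf, a mean of at least 5 CPM over 6 to 7 hpf, and an 8 to 9 hpf mean at least 0.5 times the 6 to 7 hpf mean. Of 20526 transcripts that were low up to 5 hpf, 146 reached 5 CPM at 6 to 7 hpf, and 2 of these were lost for falling too far by 8 to 9 hpf. An upper limit of 150 members was therefore not reached.

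The series followed whole embryos hour by hour from 1 to 9 hpf in 31 libraries of polyadenylated RNA, 12 with codes of 2012 and 19 with codes of 2013. The embryos came from animals caught in the sea near Woods Hole, with no treatment and no laboratory strain, so each pool of 100 to 200 embryos carries undefined wild genotypes. The groups of 2013 hold 2 libraries at 1 hpf, 5 at 2 to 3 hpf, 3 at 4 to 5 hpf, 5 at 6 to 7 hpf and 4 at 8 to 9 hpf, of which 1 is of 9 hpf. Library totals ran from 17608264 to 116632427 counts, and a 2013 code starts with a digit (2013_1 to 2013_4) whose meaning the labels do not give, called the code series here.

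Comb jellies cleave in a stereotyped pattern, gastrulate early, and then form the comb plates (paddles of large cilia beaten for swimming), the tentacles, the pharynx and the apical sense organ within about a day. As in other animals, the egg carries maternal RNA that serves the first divisions, and transcription from the embryo's own genome takes over later, a handover called the maternal-to-zygotic transition. A transcript that is scarce in the young embryo and abundant later is usually read as zygotic, although a polyadenylated fraction can also gain a stored RNA whose tail lengthens. None of the 31067 identifiers paired with a name in the reference gene table (0 matches against 19625 genes), so the members are given by number, no function is assigned to any of them, and no marker of a tissue could be applied.

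The word zygotic in the working name went beyond these counts. In 3 of the 144 members no read was counted at 1 hpf in 2013, and no member was without counts over 1 to 5 hpf, where the 10 libraries together held 11 to 326 counts per member (median 140). The highest 1 hpf level had a median of 0.166 CPM over the members, the 2 to 3 hpf mean a median of 0.287 CPM and the 4 to 5 hpf mean a median of 1.26 CPM. Whether the few early counts came from stored RNA was not tested. The members are therefore described here as late-rising transcripts.

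Collectively the late-rising transcripts were a trace of the library at first and a visible part of it at the end. They took 0.00244% ± 0.000356 (SD, n = 2) of all counts at 1 hpf, 0.00945% ± 0.0108 (n = 8) at 2 to 5 hpf, 0.129% ± 0.114 (n = 5) at 6 to 7 hpf and 0.544% ± 0.537 (n = 4) at 8 to 9 hpf in 2013. From 2 hpf on, libraries of the same period differed several-fold, and the SD is close to the mean in the last 3 groups. The 9 hpf library alone stood at 1.33%, and the 10 members most abundant there held 41.1% of the members' share. In whole embryos, more cells containing a transcript and more of it per cell cannot be told apart, and a share can also move because other transcripts change.

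The rise differed between the code series, as the plot of members by library shows. In series 2013_2 the median member was at 0.138 CPM at 1 hpf, 0.0834 to 0.308 CPM over the next 3 hours and 0.568 CPM at 5 hpf, and then at 2.26, 3.02 and 8.88 CPM at 6, 7 and 8 hpf. In series 2013_4 the median was 0.0772 CPM at 1 hpf and 0 at 2 hpf, followed by 8.60, 16.7, 17.3 and 40.7 CPM in the libraries of 6, 7, 8 and 9 hpf. At 6 and at 7 hpf, series 2013_4 was thus several-fold above series 2013_2, and it has no library of 3 to 5 hpf. Series 2013_3 ended at 4 hpf with medians of 0.289 CPM at 2 hpf, 0.731 at 3 hpf and 2.24 at 4 hpf. Series 2013_1 had 4.03 CPM at 7 hpf and 8.73 at 8 hpf.

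**Figure D1:**
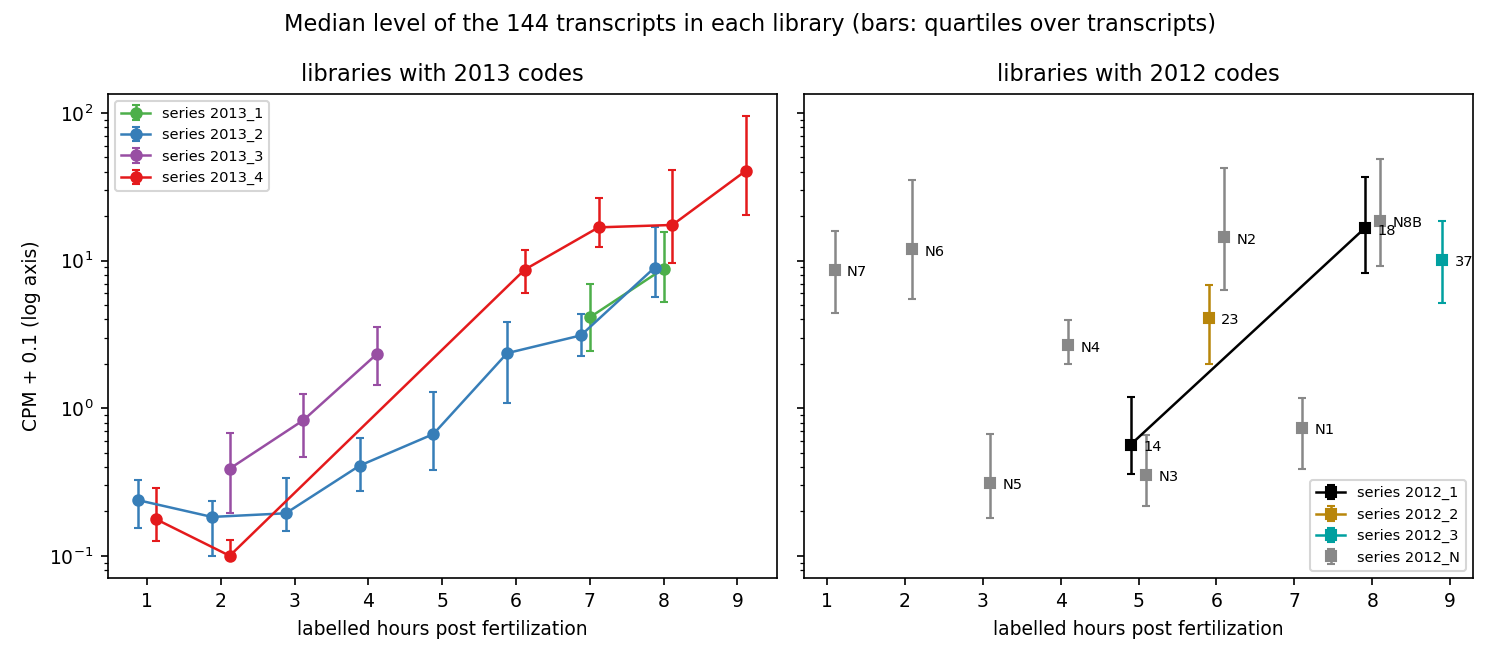
Median (points) and quartiles (bars) of the 144 late-rising transcripts in every library, as CPM + 0.1 on a log axis against labelled hour, with lines joining each 2013 code series on the left and library codes beside the 2012 points on the right. The 2013 medians stay under 1 CPM up to 5 hpf except in 2013_34 and climb to 40.7 CPM in the 9 hpf library, while 2012_N7 at 1 hpf and 2012_N6 at 2 hpf stand near the late libraries and 2012_N1 at 7 hpf near the early ones.

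Members passed 1 CPM at different labelled hours in different libraries of 2013. At 4 hpf, 123 members already had 1 CPM or more in library 2013_34, against 9 in library 2013_24 of the same hour. The median of 2.24 CPM in 2013_34 lay beside the 2.26 CPM of the 6 hpf library 2013_26, in which 108 members had 1 CPM or more, and 81 of the 144 members were at least as high in 2013_34 as in 2013_26. At 5 hpf the only 2013 library had 48 members at 1 CPM or more. All 144 members passed 1 CPM in both 2013_46 at 6 hpf and 2013_47 at 7 hpf.

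Steps from one hour to the next within a code series add a view the means hide, with the share of all transcripts moving the same way as a yardstick. From 5 to 6 hpf in series 2013_2, 137 members (95.1%) were higher in CPM at the later hour, against 41.3% of all transcripts. From 3 to 4 hpf in series 2013_3 it was 140 (97.2%), against 59.1%, so higher levels were seen before 5 hpf there. From 6 to 7 hpf, 99 members (68.8%) were higher in series 2013_2 and 123 (85.4%) in series 2013_4, against 25.7% and 42.3% of all transcripts. From 7 to 8 hpf the counts were 140 (97.2%) in 2013_2 and 130 (90.3%) in 2013_1, against 69.4% and 62.4%, but 82 (56.9%) in 2013_4, below the 72.9% of all transcripts. From 8 to 9 hpf in series 2013_4, 133 members (92.4%) were higher, against 34.5%. These steps lean on the libraries that chose the members and are a description.

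Members differed widely in how their later level compared with the earlier one. The 6 to 7 hpf means spanned 5.01 to 37.9 CPM (median 7.18), while the 8 to 9 hpf means spanned 2.98 to 304 CPM (median 19.8). The ratio of the later mean to the earlier had a median of 2.79 (quartiles 1.68 and 4.20) and ran from 0.573 to 31.1. By bounds of 1.5-fold, 115 members were rising, 26 level and 3 lower, so "kept" was for most of them a further climb in plain CPM. The shares of all transcripts within these bounds were not counted, so nothing particular to the members is read from this. The TMM factors, by which edgeR rescales library totals, were 0.818 to 0.983 at 6 to 7 hpf and 1.09 to 1.69 at 8 to 9 hpf. Scaling by them would lower these ratios. The highest hour of 2013 was 9 hpf for 132 members, 8 hpf for 6, 7 hpf for 2 and 6 hpf for 4.

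Much of that climb sat in the 1 library of 9 hpf. With 8 hpf alone in place of 8 to 9 hpf, the ratio to the 6 to 7 hpf mean had a median of 1.71, was 1.5 or more in 79 members, under 1 in 36 and under 0.5 in 3. Within series 2013_4, the 9 hpf level was a median 2.13 times the 8 hpf level, and at least double in 79 members. Library 2013_49 was the highest of the 19 libraries of 2013 for 113 members, and the highest of all 31 for 85. It entered the mean that chose the members, and shares of all transcripts were not counted, so nothing is read from these counts. The 9 hpf library of 2012, 2012_37, had a members' median of 10.04 CPM. That was below the 16.5 and 18.4 CPM of 2012_18 and 2012_N8B at 8 hpf.

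**Figure D2:**
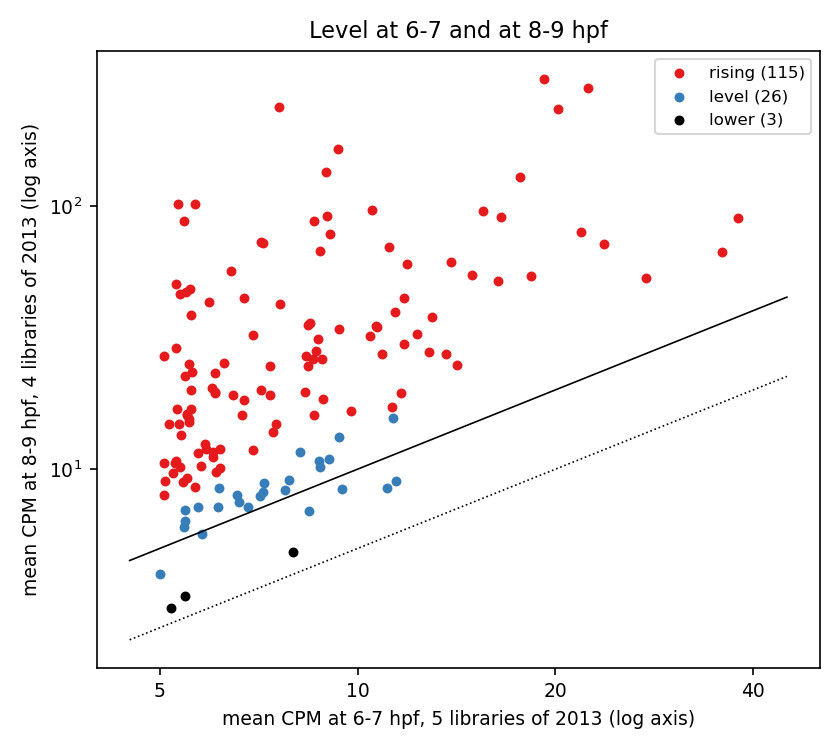
Mean CPM at 8 to 9 hpf against mean CPM at 6 to 7 hpf, both on log axes, for each of the 144 members in the libraries of 2013, coloured by course, with the solid line at equality and the dotted line at the ratio of 0.5 required of a member. Most points lie above the solid line (115 rising), and the 3 lower members lie just above the dotted line.

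The ratio of the 7 hpf to the 6 hpf mean ran from 0.487 to 17.7 (quartiles 1.03 and 2.73), and was divided at a fixed point for description. In 86 members the 6 hpf mean was at least 0.5 times the 7 hpf mean ("already at 6 hpf"), and in 58 it was less ("mainly at 7 hpf"). The first group had hourly means with medians of 6.82, 6.99, 9.05 and 25.4 CPM from 6 to 9 hpf. The second had 3.23, 11.2, 21.3 and 79.5 CPM. In the second group the library medians were 1.05 (2013_26) and 5.02 CPM (2013_46) at 6 hpf. At 7 hpf they were 4.47 (2013_17), 2.38 (2013_27) and 23.2 CPM (2013_47). Its 7 hpf mean thus leaned on 2013_47, and the group names compare 6 with 7 hpf only. Of the 58 members mainly at 7 hpf, 56 were rising and 2 level, whereas the 86 already at 6 hpf divided into 59 rising, 24 level and all 3 lower members. In 31 members the 6 hpf mean exceeded the 7 hpf mean.

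**Figure D3:**
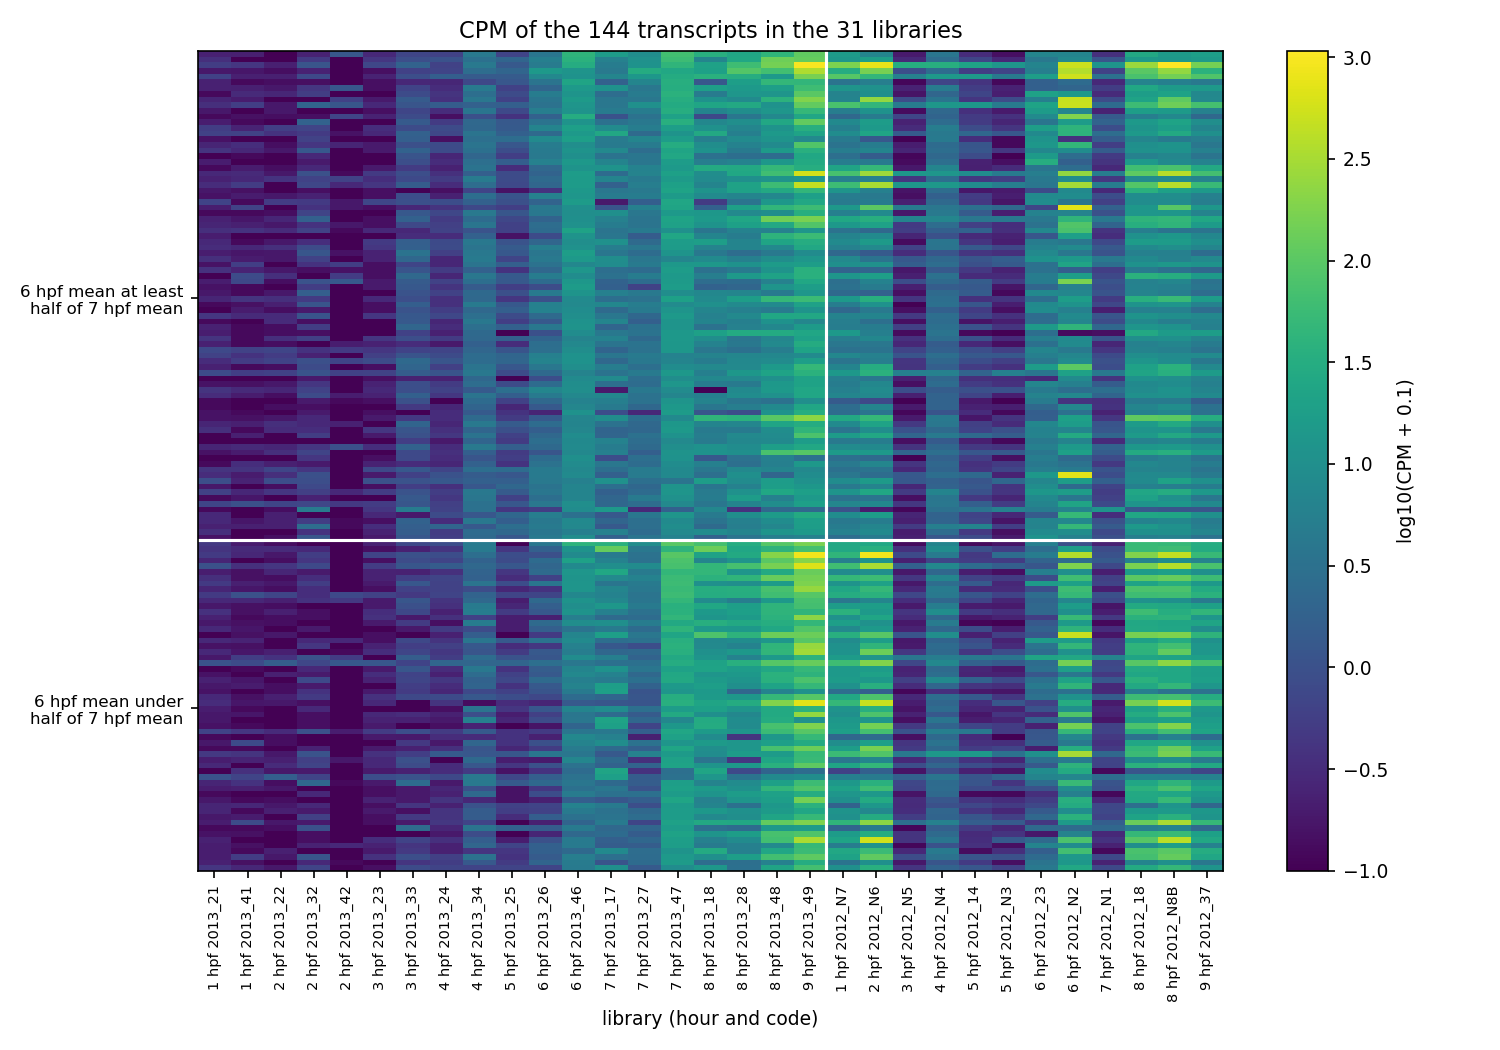
Level of each of the 144 members (rows) in each of the 31 libraries (columns), as log10 of CPM + 0.1, with white lines dividing the members already at 6 hpf (86) from those mainly at 7 hpf (58) and the libraries of 2013 from those of 2012. In the 2013 columns the colour brightens from 6 hpf on, and it is brightest at 9 hpf in the lower block. The 4 hpf column 2013_34 (median 2.24 CPM) is an exception, near the 6 hpf column 2013_26 (2.26 CPM).

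The 2 timing groups were then read in 4 libraries of 2012 whose codes hold no N (2012_14 at 5 hpf, 2012_23 at 6 hpf, 2012_18 at 8 hpf and 2012_37 at 9 hpf), which had no part in choosing members. Members already at 6 hpf had medians of 0.555, 5.56, 11.5 and 6.35 CPM in these libraries in that order. Members mainly at 7 hpf had 0.386, 2.23, 28.9 and 16.6 CPM. From 5 to 6 hpf, 80 of the 86 and 51 of the 58 were higher, with median ratios of 9.95 and 4.62. From 6 to 8 hpf, 64 of the 86 and 57 of the 58 were higher, with median ratios of 1.97 and 16.7. Over all transcripts with a count in the earlier library, the median ratio was 0.952 from 5 to 6 hpf and 1.37 from 6 to 8 hpf. How many of all transcripts were higher was not counted, so nothing is read from the members' counts. By the medians, the group that lagged in 2013 also had most of its increase after 6 hpf in 2012. With 1 library an hour the difference has no replicate check.

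**Figure D4:**
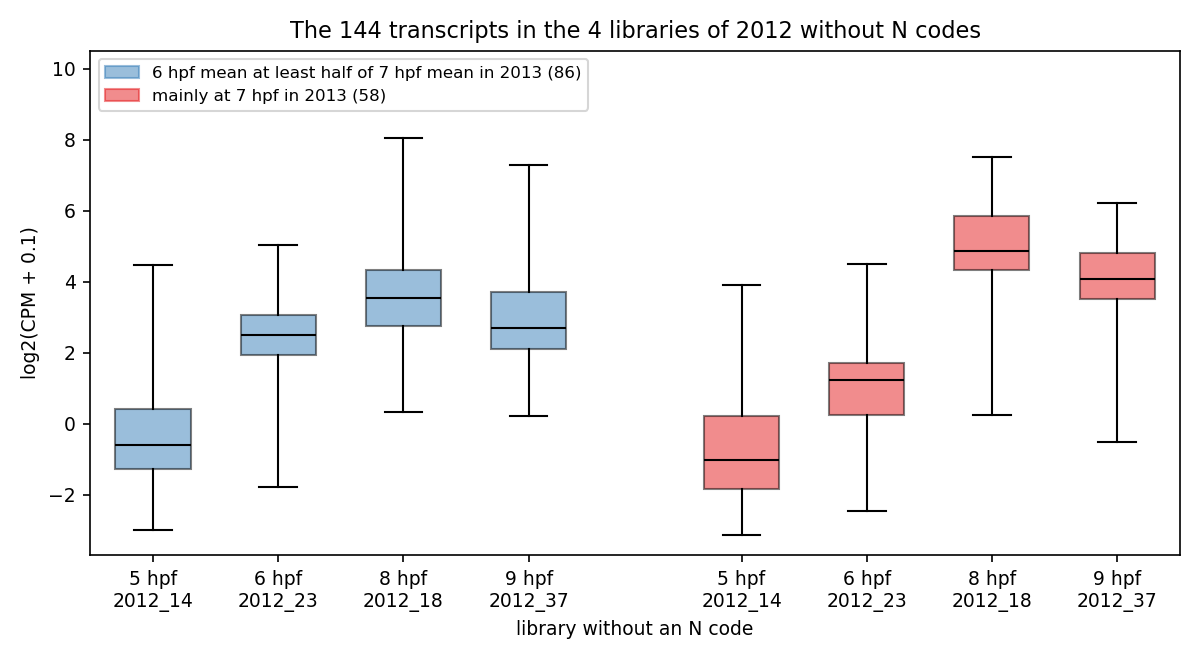
Boxes (median and quartiles, whiskers over the full range) of log2(CPM + 0.1) for the members already at 6 hpf and those mainly at 7 hpf in the 4 libraries of 2012 without N codes. At 6 hpf the members already at 6 hpf are higher (median 5.56 against 2.23 CPM), and at 8 hpf the order is the opposite (11.5 against 28.9 CPM).

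The groups by course were also compared in these libraries, from 6 hpf on because none is of 7 hpf. Of the 115 members rising in 2013, 111 were higher in the 8 hpf than in the 6 hpf library of 2012, with a median ratio of 7.57. Of the 26 level members, 10 were higher, with a median ratio of 0.873, and of the 3 lower members none was (0 of 3, ratio 0.726). The median ratio of all transcripts with a count at 6 hpf was 1.37. At 9 hpf against 6 hpf the median ratios were 4.37 for rising, 0.494 for level and 0.325 for lower members. Altogether 139 members kept at least 0.5 times their 6 hpf level at 8 hpf, and 124 did at 9 hpf. The shares of all transcripts that were higher or met this bound were not counted, so nothing is read from the members' counts.

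Levels per transcript length (RPKM, the CPM divided by the length in kilobases) allow members to be compared with each other. At 6 to 7 hpf of 2013 they ran from 0.480 to 39.6 RPKM (median 4.28), and at 8 to 9 hpf from 1.44 to 397 RPKM (median 11.3). The 2 highest at 6 to 7 hpf were Mle_011605 at 39.6 RPKM and Mle_005239 at 34.7 RPKM. Mle_011605, 956 bases long, was at 0.359 and 0.103 CPM at 1 hpf, and the other 2013 libraries up to 5 hpf reached at most 4.31 CPM, in 2013_34. It then stood at 3.67 and 40.1 CPM in the 6 hpf libraries, 36.0, 9.36 and 100.1 CPM in those of 7 hpf, 70.2, 30.8 and 93.2 CPM in those of 8 hpf and 166 CPM in that of 9 hpf. The 6 hpf library of series 2013_2 thus overlapped with the 4 hpf library of series 2013_3, and all other libraries from 6 hpf on lay above every earlier one.

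Mle_005239, 326 bases long, was one of the level members. Its 2013 levels were at most 2.13 CPM up to 5 hpf, then 6.50 and 18.5 CPM at 6 hpf, 8.55, 5.01 and 18.1 CPM an hour later, 10.7, 6.83 and 11.7 CPM at 8 hpf and 33.5 CPM in the last library. All libraries from 6 hpf on were above all earlier ones, and the 6, 7 and 8 hpf values overlapped.

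The steepest climbs after 7 hpf belonged to Mle_003553 (3210 bases, later mean 31.1 times the earlier) and Mle_015550 (666 bases, 19.1 times). Mle_003553 was at 0.157 and 1.22 CPM at 6 hpf, at 1.09, 0.995 and 34.5 CPM at 7 hpf, at 22.6, 30.6 and 187 CPM at 8 hpf and at 705 CPM at 9 hpf. Library 2013_47 thus held 90.9% of its 6 to 7 hpf sum, the highest such share among the members, and without that library it would not have reached 5 CPM at 6 to 7 hpf. Mle_015550 had lower levels at 8 and 9 hpf, with 0.911 and 4.27 CPM at 6 hpf, 1.58, 2.11 and 17.8 CPM at 7 hpf, 5.70, 8.59 and 64.0 CPM at 8 hpf and 328 CPM at 9 hpf. In the 2012 libraries without N codes Mle_003553 went from 0.237 CPM at 5 hpf and 0.487 at 6 hpf to 161 at 8 hpf and 58.6 at 9 hpf, and Mle_015550 from 0.237 and 2.41 CPM to 96.5 and 25.7 CPM.

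Mle_021393 (709 bases) had the next highest share in 1 library, 84.9% of the 6 to 7 hpf sum in 2013_47. It read 0.848 and 8.46 CPM at 6 hpf, 4.34, 3.26 and 95.4 CPM at 7 hpf, 20.7, 28.3 and 202 CPM at 8 hpf and 874 CPM at 9 hpf. Per length it was the most abundant member at 8 to 9 hpf (397 RPKM).

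At the other end, the 8 to 9 hpf mean of Mle_011675 (1248 bases) was 0.573 times its 6 to 7 hpf mean, that of Mle_016223 (440 bases) 0.604 times and that of the remaining lower member, Mle_013087, named after its values were seen, 0.608 times. Mle_011675 was irregular, with 0.440 and 9.11 CPM at 6 hpf and 14.6, 0.187 and 1.65 CPM at 7 hpf. It had also shown 4.58 CPM at 2 hpf and 4.75 CPM at 3 hpf in series 2013_3, above 3 of its 5 values at 6 to 7 hpf, so its entry among late-rising transcripts rested on 2 libraries. Mle_016223 moved with the code series, with 2.45 and 10.1 CPM at 6 hpf, 0.803, 2.89 and 11.1 CPM at 7 hpf, 1.21, 3.26 and 5.65 CPM at 8 hpf and 3.09 CPM at 9 hpf. Its later values lay within the range of its earlier ones.

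**Figure D5:**
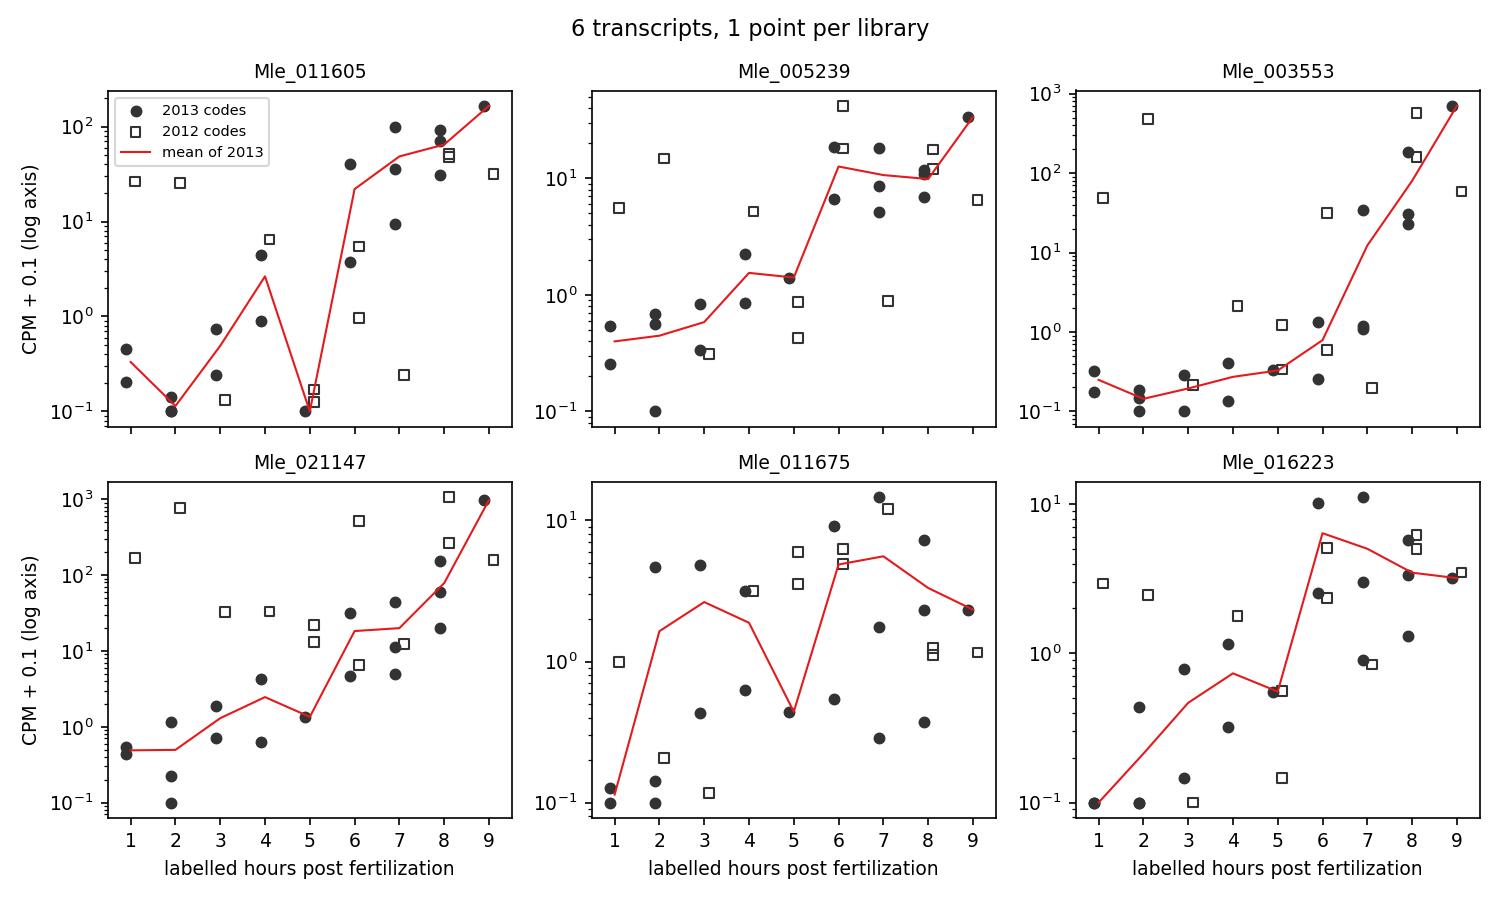
CPM on a log axis against labelled hour for 6 named members, 1 point per library of 2013 or 2012, with the line through the mean of each hour in 2013. Mle_003553 climbs to 705 CPM at 9 hpf, Mle_005239 stays between 5.01 and 18.5 CPM from 6 to 8 hpf and is at 33.5 CPM at 9 hpf, and Mle_011675 scatters from 0.187 to 14.6 CPM at 7 hpf.

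Length was a property the choice did not use, although a CPM minimum favours long transcripts. Members were 320 to 13157 bases long, with a median of 1858.5, against 1078 for all transcripts and 2326 for the 7978 transcripts with at least 5 CPM at 6 to 7 hpf of 2013. Members mainly at 7 hpf had a median of 2446 bases and members already at 6 hpf 1617. The longest, Mle_001101, was at 2.86 and 3.86 CPM at 6 hpf, 2.93, 2.95 and 31.3 CPM at 7 hpf, 20.6, 34.3 and 93.5 CPM at 8 hpf and 122 CPM at 9 hpf. It was near 2 CPM in 2013_24, 2013_34 and 2013_25 (1.94, 2.03 and 1.99 CPM) before that. The shortest, Mle_009109, was at 4.21 and 5.61 CPM at 6 hpf, 10.7, 2.89 and 3.43 CPM at 7 hpf, 17.4, 8.62 and 17 CPM at 8 hpf and 10.9 CPM at 9 hpf.

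Membership at the bounds was a matter of hundredths. The lowest 6 to 7 hpf mean inside was that of Mle_018720 at 5.01 CPM, and Mle_008382 at 4.97 CPM stayed outside. Mle_021147 was inside with a 4 to 5 hpf mean of 1.99 CPM and Mle_001964 outside at 2.00 CPM. For the ratio, Mle_011675 was inside at 0.573 and Mle_015320 outside at 0.498. The set also leaned on particular libraries. Without 7 hpf 2013_47, 74 transcripts met the conditions, 72 of them members. Without 4 hpf 2013_24 it was 94, all of them members. Without 4 hpf 2013_34 it was 285, above the limit of 150. The 150 of these with the highest 6 to 7 hpf mean held 63 members. With TMM factors on the column totals it was 185, and the 150 highest of these held 133 members. With medians in place of means 136 transcripts met the conditions, of which 58 were members.

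Within the 6 to 7 hpf group the weight was uneven. The highest of the 5 libraries was 2013_47 for 114 members, 2013_46 for 17, 2013_17 for 12 and 2013_27 for 1. The top library held a median of 48.6% of a member's sum, over 50% in 68 members and over 80% in 6. In 103 members all 5 libraries had 1 CPM or more, and in 4 all 5 had 5 CPM or more. For 41 members every 6 to 7 hpf library lay above every 2 to 5 hpf library of 2013, as it did for 2.5% of all transcripts. For 7 members every 8 to 9 hpf library lay above every 6 to 7 hpf one, as it did for 5.95% of all transcripts. The members were chosen on these libraries, so nothing is read from either count.

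In series 2013_1 the median member was near that of series 2013_2 (4.03 against 3.02 CPM at 7 hpf and 8.73 against 8.88 CPM at 8 hpf). Library 2013_17 was the highest of the 3 at 7 hpf for 14 members, 2013_18 the highest at 8 hpf for 22, and both held for 7, among them Mle_009109 and Mle_011675. All these libraries entered the means that chose the members. Shares of all transcripts were not counted, so nothing is read from these counts.

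The code series differed at the same hours. Library 2013_46 was above 2013_26 in 142 members at 6 hpf (median ratio 4.17), 2013_47 above 2013_27 in 143 at 7 hpf (6.12) and 2013_48 above 2013_28 in 130 at 8 hpf (2.14). Over all transcripts the corresponding shares were 42.6%, 48.6% and 69.2%. In a fit of 6 to 8 hpf with hour and code series as terms (edgeR's quasi-likelihood test on counts, Benjamini-Hochberg adjustment over 17892 transcripts), 91 members were higher in series 2013_4 than in 2013_2 and 0 lower at an adjusted p of 0.05, where 9.98% of all transcripts were higher. Nothing is read from the members' share, because 2013_46 and 2013_47 helped to choose the members while series 2013_4 has no library among those that had to be low at 3 to 5 hpf. The count fell to 41 without 2013_26, where 700 of 20155 transcripts were higher, and to 35 without 2013_46 (601 of 20116). It was 12 without 2013_27 (92 of 17805) and 59 without 2013_47 (1098 of 17415). Without 2013_48 it rose to 132 (2910 of 16989) and without 2013_17 to 100 (1889 of 20188). It was 92 without 2013_18 (1736 of 20034) and 85 without 2013_28 (931 of 17526).

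The 2 members with the smallest p in that fit were Mle_014922 and Mle_024089. Mle_014922 (5019 bases) was at 0.0942, 0.249 and 0.340 CPM in series 2013_2 at 6, 7 and 8 hpf, and at 6.95, 20.4 and 23.1 CPM in series 2013_4. Mle_024089 (4512 bases) was at 0.126, 0.124 and 0.306 CPM and at 7.56, 19.9 and 13.7 CPM. Both stayed under 1 CPM in series 2013_2 through 8 hpf, and the 2 series did not overlap. The fitted log2 differences were 5.97 (SE 0.42) and 6.00 (SE 0.52). They are a description, because both members reached the 6 to 7 hpf minimum mainly through 2013_46 and 2013_47, and both were named for their small p.

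Between 6 and 7 hpf of 2013 no transcript passed the threshold (0 of 21255 tested, 0%, edgeR's quasi-likelihood test over all 19 libraries with hour as factor). At an unadjusted p under 0.05 there were 179, and 10 members were among those higher at 7 hpf (6.94% of members against 0.47% of transcripts tested). The median log2 fold change of the members was 0.80, against 0.10 over all, and 116 of 144 were positive. It was 0.11 without 2013_26, 2.37 without 2013_46 and -0.34 without 2013_47, so the pooled value changed sign without 2013_47. Within code series, 99 members in 2013_2 and 123 in 2013_4 were higher at 7 than at 6 hpf. With the code series as a block over 6 to 8 hpf the median was 0.94, 0 of 17892 transcripts passed, and 55 members (38.2%) were higher at an unadjusted p under 0.05, against 3.24% of transcripts. DESeq2 called 1 transcript and 0 members. All 5 libraries of 6 and 7 hpf entered the mean that chose the members, so nothing is read from the members' shares.

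In the libraries of 2012, the only data that played no part in the choice, several libraries stand apart by their labelled hour. The members' median was 8.59 CPM in 2012_N7 at 1 hpf and 11.8 CPM in 2012_N6 at 2 hpf, against 0.210 in 2012_N5 at 3 hpf, 2.57 in 2012_N4 at 4 hpf, and 0.255 and 0.467 in 2012_N3 and 2012_14 at 5 hpf. At 6 hpf it was 14.3 in 2012_N2 and 4.00 in 2012_23, at 7 hpf 0.634 in 2012_N1, at 8 hpf 18.4 in 2012_N8B and 16.5 in 2012_18, and at 9 hpf 10.04 in 2012_37. So 2012_N6 was above 2012_23 in 111 members and 2012_N7 in 96, whereas 2012_N1, labelled later, was above it in 11. For these pairs the shares of all transcripts were not counted, so nothing particular to the members is read from them. The N codes run against the labelled hours, from N7 at 1 hpf to N1 at 7 hpf.

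Some 2012 columns overlapped. The counts of 2012_N7 were at least those of 2012_37 in every transcript, and those of 2012_N4 at least those of 2012_14. Whether columns were merged was not tested. After taking 2012_37 away, the members' median in 2012_N7 dropped from 8.59 to 0.399 CPM and the members at 1 CPM or more from 142 to 41. After taking 2012_14 away, that in 2012_N4 went from 2.57 to 6.57 CPM. Libraries 2012_N4 and 2012_14 both stand in the 2 to 5 hpf group below, where they may not be separate replicates, and subtracting the shared counts also left 0 calls in each period comparison. The library 2012_N2 held 388 transcripts at 10 or more times the level of every other library, of which 1 was a member. It was the highest of all 31 libraries for 22 members, and the share of all transcripts highest there was not counted.

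As labelled, the 12 libraries of 2012 gave no call for any transcript between the periods (edgeR's quasi-likelihood test, groups of 1, 2 to 5, 6 to 7 and 8 to 9 hpf, 26689 transcripts tested, all 144 members among them). For 6 to 7 against 2 to 5 hpf, 0% passed the adjusted threshold, 2142 transcripts had an unadjusted p under 0.05, and 19 members (13.2%) were among those higher, against 7.51% of transcripts. The members' median log2 fold change was 1.19, against 0.17 over all, with 120 of 144 positive. It was 2.53 without 2012_N6 and -0.31 without 2012_N2, so its sign also hung on 1 library. For 8 to 9 against 2 to 5 hpf, 0% passed, 3996 transcripts had an unadjusted p under 0.05, and 21 members (14.6%) were among those higher, against 3.36%. That median was 1.76 against 0.61, with 142 of 144 positive. Without 2012_N6 the median was 3.58, and 75 members (52.1%) were called higher, where 12.8% of transcripts were. For 8 to 9 against 6 to 7 hpf, 0% passed, 1980 transcripts had an unadjusted p under 0.05, 5 members (3.47%) were higher against 1.73% of transcripts, and 6 (4.17%) were lower against 5.69%. The members' median was 0.51, against -0.19 over all, and it was 2.18 without 2012_N2 and 0.05 without 2012_N1. DESeq2 on the same libraries called 9 members higher for 6 to 7 hpf, where it called 0.618% of transcripts higher, and 2 members for 8 to 9 hpf, where it called 0.244%.

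Leaving out 2012_N6 and 2012_N1, a choice made after their levels were seen that by itself widens the gap between the periods, 73 members (50.7%) rose from 2 to 5 to 6 to 7 hpf by edgeR, where 12.5% of transcripts did. For 8 to 9 hpf, 121 members (84.0%) rose, where 27.5% of transcripts did. The hours the codes 2012_N6 and 2012_N1 truly stand for were not tested.

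The 4 libraries without N codes gave a comparison free of the N-coded libraries, although 2012_14 and 2012_37 are the smaller columns of the overlapping pairs and 2012_14 is the only 5 hpf library in it. Members were higher than at 5 hpf (2012_14) in 131 cases at 6 hpf, in 143 at 8 hpf and in 142 at 9 hpf, with median ratios of 6.72, 26.4 and 14.9. Over the 23306 transcripts with a count at 5 hpf, the median ratios were 0.952, 2.16 and 1.89. All 3 later libraries were above 5 hpf in 130 of 144 members (36.9% of all transcripts). Set as 3 libraries of 6 to 9 hpf against 1 of 5 hpf, edgeR called 0 of 22899 transcripts (0%). At an unadjusted p under 0.05 there were 5054, and 120 members (83.3%) were among those higher, against 16.9% of transcripts. The members' median log2 fold change was 3.76, against 0.95 over all, with 142 of 144 positive. The arm of 1 library has no spread of its own and is assumed to vary like the others, which are of 3 different hours, so calls from this fit compare these libraries and not the hours. Their number was unstable. DESeq2 called 113 members higher (78.5%), where it called 11% of transcripts higher, while edgeR called 136 members without 2012_23 (39.4% of transcripts), 68 without 2012_18 (3.23%) and 0 without 2012_37.

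Named members differed in their order over these 4 libraries. Mle_011605 went from 0.0249 CPM at 5 hpf to 5.35 at 6 hpf, 51.9 at 8 hpf and 31.5 at 9 hpf. Mle_005239 went from 0.773 to 17.9, 12 and 6.39 CPM, highest at 6 hpf. Mle_021147 (3488 bases) had 21.8 CPM at 5 hpf, more than the 6.49 CPM at 6 hpf and less than the 263 and 157 CPM that followed. It was also at 32.7 CPM at 3 hpf in 2012_N5 and 33 CPM at 4 hpf in 2012_N4, so in 2012 it was not scarce early. Mle_011675 ended below its 5 hpf level, with 3.43, 4.81, 1.15 and 1.06 CPM.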

How the data were processed

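Polyadenylated RNA of whole embryos was sequenced as 31 libraries. The authors deposited raw counts per transcript record in 1 table for all libraries, and the submitters' processing notes name Bowtie2 and SAMtools, without their settings. How reads shared by similar records were counted, and whether strand was used, is not stated in labels or headers, and records with near-identical copies are uncertain. The deposited RPKM table was not used. CPM used each column's total, and RPKM the deposited length.

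The software was R 4.3.3 and edgeR 4.0.16 (filterByExpr, TMM, quasi-likelihood, Benjamini-Hochberg over all records tested, threshold 0.05), with DESeq2 1.42.0 and limma 3.58.1 as alternatives. The scripts were tested on simulated counts. Members, timing groups and lists were chosen with earlier results of these data known. Members named were the highest per length, the extremes of the later to earlier ratio, of length, of the share in 1 library and of the bounds, and the smallest p-values. The design text calls the libraries biological replicates, but the labels do not tie them to spawnings, so a p-value here covers only variation among these libraries, which may be technical.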

Additional observations from a re-analysis of the deposited data

Results flagged for a closer look

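In 60 groups of 4 or 5 libraries of the same hour tested for a library far from the others, 29 had one. The nominal rate is about 1 in 20 for normally distributed values, but CPM without a log were tested. Several members were named for a high share in 1 library or for a code series difference, so some hits came with the choice. The groups are also not independent because named members share libraries, and nothing is read from the number. At 2 hpf, 2012_N6 stood apart for the members' median (11.8 CPM) and their share of counts (0.734%). The same library stood apart for Mle_001101 (182 CPM), Mle_003553 (485 CPM), Mle_005239 (14.6 CPM), Mle_009109 (15.4 CPM), Mle_011605 (25.6 CPM), Mle_014922 (6.79 CPM), Mle_015550 (556 CPM), Mle_016223 (2.35 CPM), Mle_021147 (769 CPM), Mle_021393 (866 CPM) and Mle_024089 (2.35 CPM). At 2 hpf, 2013_32 did so for Mle_011675 (4.58 CPM).

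At 6 hpf, 2012_N2 stood apart for the members' share of counts (0.886%) and for Mle_001101 (157 CPM), Mle_003553 (31.5 CPM), Mle_015550 (78.3 CPM), Mle_021147 (519 CPM) and Mle_021393 (373 CPM), and 2013_46 for Mle_011605 (40.1 CPM). At 7 hpf, 2013_47 stood apart for Mle_001101 (31.3 CPM), Mle_003553 (34.5 CPM), Mle_014922 (20.4 CPM), Mle_015550 (17.8 CPM) and Mle_021393 (95.4 CPM). At 8 hpf, 2013_18 did so for Mle_011675 (7.17 CPM), and 2012_N8B for Mle_015550 (412 CPM) and Mle_021147 (1075 CPM).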

How the results depend on the processing

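The 2012 comparisons depended on the libraries and the tool, and the code series fit on the libraries, and the causes were not tested. For 6 to 7 against 2 to 5 hpf of 2012, where the main count was 0, DESeq2 called 177 transcripts (9 members higher), leaving out 2012_N7, 2012_N6 and 2012_N1 gave 3419 (72), leaving out 2012_N6 and 2012_N1 gave 3596 (73), and the 4 libraries without N codes gave 8523 (106 higher, 8 lower), with 1 library in each arm and 1 residual degree of freedom from the 8 to 9 hpf libraries, so that this count compares 2 libraries. For 8 to 9 against 2 to 5 hpf the same settings gave 453 (2), 9863 (121), 10007 (121) and 11184 (136 higher, 1 lower), and limma with a pseudocount of 1 or 0.1 gave 1. For 8 to 9 against 6 to 7 hpf, DESeq2 gave 26 and the 4 libraries 6674 (68 higher, 12 lower). For 6 to 9 against 5 hpf without N codes, no filter gave 1177 (75), DESeq2 3032 (113) and limma with a pseudocount of 1 gave 20. For 7 against 6 hpf of 2013, DESeq2 gave 1. The totals above count transcripts in both directions, while members are those higher unless marked lower. Without 2012_N7, 2012_N6 and 2012_N1, 3103 of 23666 transcripts were higher at 6 to 7 hpf and 7030 at 8 to 9 hpf. Without 2012_N6 and 2012_N1, 3277 and 7224 of 26257 were. The fits without N codes tested 22899 transcripts, or 30573 with no filter. Each had 1 library in an arm, so nothing is read from their members' counts.

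Leaving out 1 library at a time gave 0 to 4165 transcripts for 8 to 9 against 2 to 5 hpf of 2012 (members 0 to 75), 0 to 11078 without N codes (members higher 0 to 136, lower 0 to 1, with 2012_14 not left out because no comparison remains) and 161 to 5338 for the code series (members 12 to 132). The members' median log2 fold change ranged from -0.31 without 2012_N2 to 2.53 without 2012_N6 (6 to 7 against 2 to 5 hpf) and from -0.34 without 2013_47 to 2.37 without 2013_46 (7 against 6 hpf), so each reversed. Scaling by column totals moved the median of all transcripts for 8 to 9 against 6 to 7 hpf from -0.19 to 0.32 and that of the members from 0.51 to 0.91. With the code series as replicate block, 7 against 6 hpf of 2013 still gave 0 calls. The conditions for members were met by 74 to 285 transcripts, and by 185 with TMM factors. Within the limit of 150 these held 63 to 144 members and, with TMM factors, 133. With medians 58 members met the conditions. Early levels rest on few counts.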
